A study of Mus musculus with 12 samples.

Results

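Blnk, Fyb, Wfdc17 and Vnn3 were examined as 4 of the 20551 genes in the deposited count table of airway macrophages (AMs) from mice with and without muco-obstructive lung disease. They were chosen by their measured values: each was raised by lipopolysaccharide (LPS) and stood higher in Scnn1b-transgenic (Tg) than in wild-type (WT) cells. All 4 passed the filter on low counts, which left 13729 genes for testing. Because LPS and genotype contrasts picked the genes, their own changes are given below as levels and fitted sizes with standard errors (SE) and without p-values.

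The study asked whether AMs from mucus-obstructed lungs differ from WT AMs at rest and in their answer to a bacterial product. Scnn1b-Tg mice carry the beta subunit of the epithelial sodium channel under the club cell secretory protein promoter, a promoter of airway epithelial club cells. Donors were 6-week-old female C57BL/6 mice of both genotypes, and each pool held lavage cells of 3 to 4 animals. Cells of a pool were cultured for 12 h in medium alone or with 100 ng/ml LPS from Pseudomonas aeruginosa. This gave WT medium and WT LPS libraries from pools 16, 17 and 18, and Scnn1b-Tg medium and Scnn1b-Tg LPS libraries from pools 17, 18 and 19, with 3 libraries in each of the 4 groups. Numbers that recur in both genotypes mark different animals. By the labels, batch 1 comprised pools WT 16, WT 17 and Tg 17, whereas batch 2 comprised WT 18, Tg 18 and Tg 19. Per the labels the cells were plate-adherent lavage cells, whereas the study's methods describe AMs sorted by flow cytometry for CD45, Siglec-F and CD11c.

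The genes encode proteins of different kinds. Blnk encodes the B-cell linker, a cytoplasmic adaptor that Syk phosphorylates below immunoreceptors and that then brings Btk, Plcg2 and Vav proteins together. It is best known from B cells, where it is required for signalling of the antigen receptor, and it is also present in macrophages. Fyb encodes an adhesion- and degranulation-promoting adaptor that binds Skap proteins, Lcp2 and Vasp-family actin regulators and links immunoreceptors to integrins. It is best known from T cells, platelets and myeloid cells. Wfdc17 encodes a small secreted protein with a whey acidic protein domain, the fold of the antiprotease Slpi, and is induced in activated macrophages and microglia. Vnn3 encodes a vanin, a family whose founder Vnn1 hydrolyses pantetheine to pantothenate, the precursor of coenzyme A, and cysteamine, which can be oxidised to hypotaurine and taurine.

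The 4 genes lie on different chromosomes of the mm10 build (positions from GENCODE M21). Blnk (ENSMUSG00000061132) spans chr19:40928927-40994535 on the minus strand and Fyb (ENSMUSG00000022148) spans chr15:6522853-6663313 on the plus strand. Wfdc17 (ENSMUSG00000069792) spans chr11:83703991-83706268 and Vnn3 (ENSMUSG00000020010) spans chr10:23851462-23869843, both on the plus strand. Union exon lengths were 5991 bases for Blnk, 5384 for Fyb, 533 for Wfdc17 and 1811 for Vnn3. The stretches just before the RefSeq transcript start are shown for the 3 genes in which they lie outside annotated exons, to give what precedes genes that moved in the same direction under LPS and genotype. They are from RefSeq (GRCm38.p6, transcript sense, 5′ to 3′), and capitals mark any match to the 6 motifs named below.

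Fyb (chr15:6579597-6579846, plus strand): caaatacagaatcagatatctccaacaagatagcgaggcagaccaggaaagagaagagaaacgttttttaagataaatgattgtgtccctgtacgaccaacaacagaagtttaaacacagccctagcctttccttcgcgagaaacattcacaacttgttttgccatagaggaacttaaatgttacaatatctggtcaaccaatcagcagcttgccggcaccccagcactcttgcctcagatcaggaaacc
Wfdc17 (chr11:83703806-83703990, plus strand): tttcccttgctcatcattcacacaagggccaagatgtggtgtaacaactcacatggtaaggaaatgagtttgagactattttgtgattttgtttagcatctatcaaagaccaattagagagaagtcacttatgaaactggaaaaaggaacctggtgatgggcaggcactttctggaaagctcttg
Vnn3 (chr10:23851212-23851461, plus strand): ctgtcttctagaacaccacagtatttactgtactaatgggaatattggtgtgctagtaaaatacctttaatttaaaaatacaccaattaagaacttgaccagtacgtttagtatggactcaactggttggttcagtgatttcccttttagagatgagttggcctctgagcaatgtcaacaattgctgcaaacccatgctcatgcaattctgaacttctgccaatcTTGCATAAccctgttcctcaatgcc

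The Fyb stretch lies inside the annotated gene, before the RefSeq start. For Blnk the 250 bases before the RefSeq start fall entirely in an exon of the gene as annotated by GENCODE, and for Wfdc17 65 of them do, so these bases are not shown. Windows of 300 bases, from 250 before to 50 after each start, were searched on both strands for NF-kB, AP-1 (TGANTCA), C/EBP (TTGCNNAA), ISRE, PU.1 (GAGGAAG) and TATA box (TATAAA) letters, the NF-kB and interferon-response (ISRE) motifs being given by name only. Overlaps between motifs were allowed, and none occurred. The Vnn3 window held 1 C/EBP match, 25 to 18 bases before the start, which 10.8% of all 32851 windows also held. The Wfdc17 window held 1 PU.1 match, 40 to 34 bases before the start, and 1 TATA box match at the start itself, each held by 13.6% of all windows. Both lie outside the stretch shown, and the PU.1 match lies within the annotated exon. The Blnk and Fyb windows held no match to any of the 6, while 50.8% of all windows held the NF-kB letters, 7.81% the AP-1 letters and 3.44% the ISRE letters. No motif was shared between the 4 windows, and the absence of these letters from a window says nothing of a factor's binding.

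Levels are given in CPM (counts scaled to library size with TMM factors and to 1e6). The deposited counts summed to 48.2 to 60.9 M per library, and a read pair was worth about 5 of these counts, so that 8 counts (0.137 to 0.163 CPM) stand for about 3 reads and were taken as the floor of detection. All 9 LPS-response genes used to check the labels (Il1b, Tnf, Nfkbia, Ptgs2, Cxcl1, Cxcl2, Il1a, Acod1 and Tnfaip3) rose with LPS in both genotypes. Scnn1b was at 0.251 to 0.385 CPM in the 4 group means and was not called in any comparison. In bulk RNA, fewer cells of a type and less RNA per cell cannot be told apart. Replicates were pools of animals, so the spread between them covers animals and handling alike.

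Blnk, the kinase adaptor, was lowest in WT medium, with 1.06, 1.57 and 2.55 CPM in pools 16, 17 and 18. WT cells given LPS held 7.83, 9.44 and 11.8 CPM in the same pools. Scnn1b-Tg cells in medium held 4.01, 4.75 and 5.21 CPM in pools 17, 18 and 19. With LPS they held 22.5, 23.4 and 19 CPM. The 4 groups followed one another without overlap, so that resting Scnn1b-Tg cells stood above all resting WT libraries and below all stimulated ones, at 48.1% of the WT LPS mean. Group means were 1.73 ± 0.76, 4.66 ± 0.609, 9.68 ± 1.98 and 21.6 ± 2.33 CPM (SD, n = 3) in ascending order.

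Fitted Blnk changes with LPS were 2.51 ± 0.22 on the log2 scale in WT (SE, 5.69-fold) and 2.23 ± 0.20 in Scnn1b-Tg (4.7-fold). Scnn1b-Tg exceeded WT by 1.35 ± 0.23 in medium (2.54-fold) and by 1.07 ± 0.19 in LPS (2.1-fold). The LPS responses of the genotypes differed by -0.27 ± 0.30, less than its own SE. Within batch 1 the Scnn1b-Tg to WT ratio of Blnk was 3.05 in medium and 2.61 in LPS, and within batch 2 it was 1.95 and 1.8. In both treatments the batch 2 WT library was the highest of its group.

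Fyb, the adhesion adaptor, held 1.31, 1.43 and 1.39 CPM in WT medium. Scnn1b-Tg medium libraries held 1.68, 1.56 and 1.7 CPM. These resting values did not overlap, but the fitted difference was only 0.21 ± 0.17 on the log2 scale (1.15-fold), close to its SE. LPS brought Fyb to 3.49, 3.17 and 4.25 CPM in WT. In Scnn1b-Tg it was at 7.24, 8.22 and 8.88 CPM, above every WT library.

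Of the 3 genes detected in all groups, Fyb had the genotype gap that widened with LPS. Its fitted LPS change was 1.40 ± 0.15 in WT (2.64-fold) and 2.29 ± 0.14 in Scnn1b-Tg (4.9-fold), a difference of 0.89 ± 0.21. In stimulated cells Scnn1b-Tg exceeded WT by 1.10 ± 0.13 (2.14-fold). Ratios within batches were 1.23 and 1.18 in medium and 2.17 and 2.01 in LPS, so the gap in LPS was of like size in both. By pool, LPS to medium ratios were 2.67, 2.23 and 3.06 in WT and 4.31, 5.27 and 5.22 in Scnn1b-Tg.

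Some Fyb reads may belong to another locus. The annotated pseudogene Gm7666 and the antisense gene Gm2245 overlap Fyb exons, counting ignored strand, and 10.8% of the 31-base words of Fyb exons recur in other genes, most often Phb. Gm7666 was more abundant in CPM than Fyb and flat, at 12.5 ± 1.49 in WT medium, 11.7 ± 0.598 in Scnn1b-Tg medium, 12.8 ± 2.7 in WT LPS and 12.3 ± 0.402 in Scnn1b-Tg LPS (SD, n = 3). It passed no test (edgeR adjusted p of 0.744 to 1 over the 4 comparisons). Gm2245 stayed at or near 0. How many reads these loci lent to Fyb was not tested. Of Blnk exon words 1.66% recurred elsewhere, and none of the words of Wfdc17 and Vnn3 did.

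**Figure D1:**
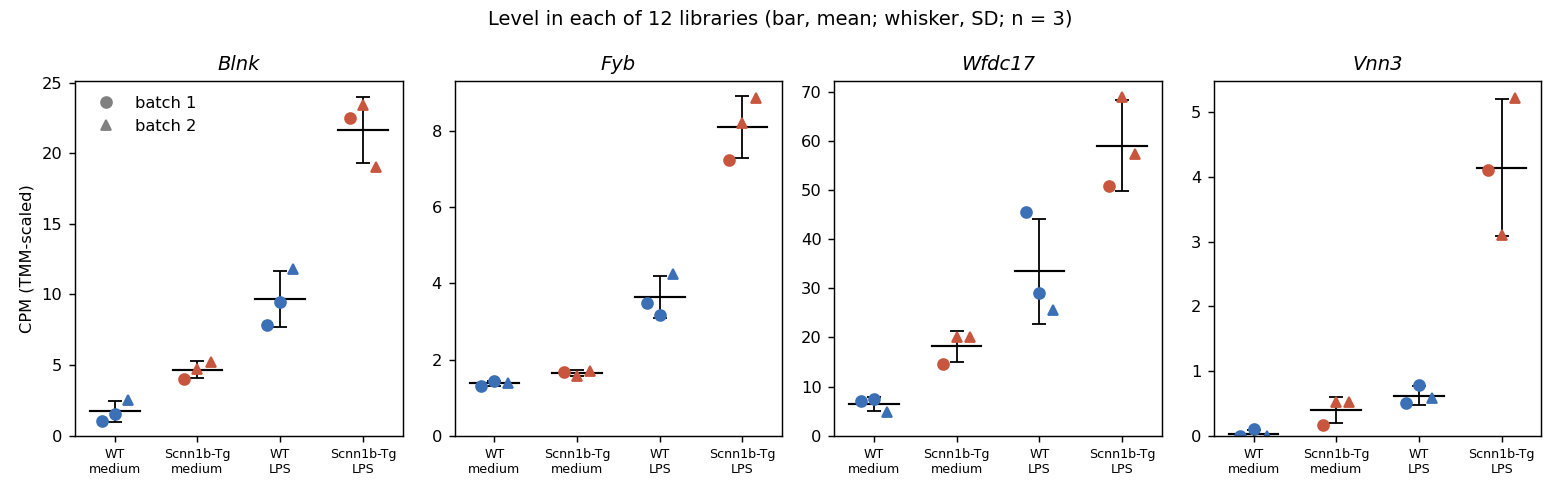
CPM (TMM-scaled, vertical axes from 0, one scale per gene) of Blnk, Fyb, Wfdc17 and Vnn3 in the 12 libraries, grouped by genotype and treatment, with WT in blue and Scnn1b-Tg in red, circles for batch 1 and triangles for batch 2, and the mean and SD of 3 libraries as bar and whisker. The 3 Scnn1b-Tg LPS libraries are the highest of every panel, from 19 CPM up for Blnk and from 3.1 CPM up for Vnn3, and the Vnn3 values of Scnn1b-Tg medium and WT LPS overlap.

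Wfdc17, the secreted whey acidic protein gene, was the most abundant of the 4. It held 7.06, 7.52 and 4.86 CPM in WT medium and 14.6, 20 and 20.1 CPM in Scnn1b-Tg medium. With LPS, WT libraries held 45.6, 29.1 and 25.6 CPM. Scnn1b-Tg libraries with LPS held 50.8, 69.0 and 57.3 CPM. Groups did not overlap, but in LPS the margin was small, since WT pool 16 at 45.6 CPM came near Tg pool 17 at 50.8 CPM, both of batch 1. The Scnn1b-Tg to WT ratio in LPS was accordingly 1.36 within batch 1 and 2.47 within batch 2, against 2.0 and 4.13 in medium.

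The fitted Wfdc17 change with LPS was 2.37 ± 0.25 in WT (5.15-fold) and 1.69 ± 0.24 in Scnn1b-Tg (3.24-fold). The genotype gap was 1.52 ± 0.26 in medium (2.87-fold) and 0.85 ± 0.25 in LPS (1.8-fold). The difference of the LPS responses was -0.67 ± 0.34, of the opposite sign to that of Fyb. Resting Scnn1b-Tg cells held Wfdc17 at 54.6% of the WT LPS mean. Wfdc17 thus had its larger fitted genotype gap before LPS, and Fyb after it.

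Vnn3, the vanin, was the least abundant. In WT medium it had 0, 5 and 0 deposited counts in pools 16, 17 and 18, which is at or below the floor of 8. WT LPS libraries had 25, 45 and 31 counts (0.499, 0.781 and 0.585 CPM). Scnn1b-Tg medium libraries had 10, 27 and 28 counts (0.171, 0.514 and 0.523 CPM), which overlapped WT LPS. Scnn1b-Tg LPS libraries had 233, 163 and 275 counts (4.1, 3.1 and 5.22 CPM), far above the other 9 libraries.

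Against the floor per library, Vnn3 was at least 3.99-fold higher with LPS in WT, and at least 2.59-fold higher in Scnn1b-Tg than WT in medium. Fitted changes are given where both groups were detected, and were 3.38 ± 0.41 on the log2 scale for LPS in Scnn1b-Tg (10.4-fold) and 2.67 ± 0.39 for genotype in LPS (6.36-fold). Both were the largest of their comparison among the 4 genes. In medium the bound was only 1.12 within batch 1, where Tg 17 had 10 counts against 0 and 5 in WT, and 3.22 within batch 2. The genotype ratio in LPS was 6.41 within batch 1 and 7.1 within batch 2. By pool, the LPS to medium ratio in Scnn1b-Tg was 24.0, 6.04 and 9.98, and the highest of these rests on 10 counts, about 4 reads, in medium. Whether the LPS response of Vnn3 differed between genotypes cannot be given, because 1 of the 4 groups lay at the floor.

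**Figure D2:**
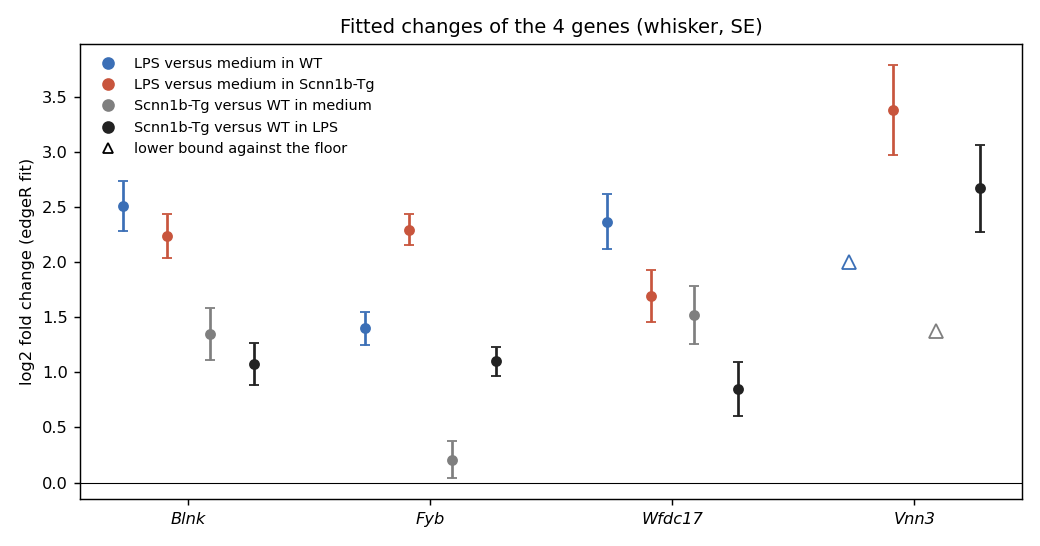
Fitted log2 fold changes (vertical axis, edgeR) of the 4 genes for LPS in WT (blue), LPS in Scnn1b-Tg (red), Scnn1b-Tg against WT in medium (grey) and in LPS (black), with SE as whiskers, and open triangles for lower bounds of Vnn3 against the floor. Every point lies above 0, the Fyb difference in medium of 0.21 is nearest to it, and Vnn3 reaches 3.38.

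Per kb of exon the genes could be set side by side. Wfdc17 held 12.2 ± 2.66 CPM per kb in WT medium and 111 ± 17.3 in Scnn1b-Tg LPS (SD, n = 3), above 74.9% and 96.7% of 13537 tested genes with a known length. Blnk went from 0.288 ± 0.127 to 3.61 ± 0.388 CPM per kb, the latter close to the median gene at 3.63. Vnn3 went from the floor to 2.29 ± 0.585 and Fyb from 0.255 ± 0.0112 to 1.51 ± 0.154 CPM per kb. In stimulated Scnn1b-Tg cells the order per kb was therefore Wfdc17, Blnk, Vnn3 and Fyb, and the libraries of Vnn3 (1.71 to 2.88) and Fyb (1.34 to 1.65) did not overlap. In WT LPS the order of the last pair was reversed, with Fyb at 0.676 ± 0.102 and Vnn3 at 0.343 ± 0.0796 CPM per kb.

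All 3 Scnn1b-Tg libraries lay above all 3 WT libraries for 4 of the 4 genes in each treatment, a pattern held by 9.02% of all tested genes in medium and 5.72% in LPS. Genes called higher with LPS in both genotypes made up 13.8% of those tested (edgeR, adjusted p under 0.05). Adding both non-overlap criteria left 52 genes, or 0.379%, all 4 among them. Since these contrasts picked the genes, the shares give only the size of the class they were taken from.

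LPS raised each gene in each of the 6 pools. In WT pools 16, 17 and 18 the LPS to medium ratio was 7.41, 6.02 and 4.61 for Blnk and 6.46, 3.87 and 5.27 for Wfdc17. In Tg pools 17, 18 and 19 it was 5.62, 4.91 and 3.64 for Blnk and 3.48, 3.44 and 2.86 for Wfdc17. The Wfdc17 ratios of the genotypes did not overlap and were lower in Scnn1b-Tg, the Fyb ratios did not overlap and were higher in Scnn1b-Tg, and the Blnk ratios overlapped. The share of all tested genes whose ratios do not overlap was not counted, so these are descriptions only. Over all 13729 genes, 0 passed edgeR for a difference of the LPS responses, with 817 at an unadjusted p under 0.05 and 77 called by DESeq2.

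**Figure D3:**
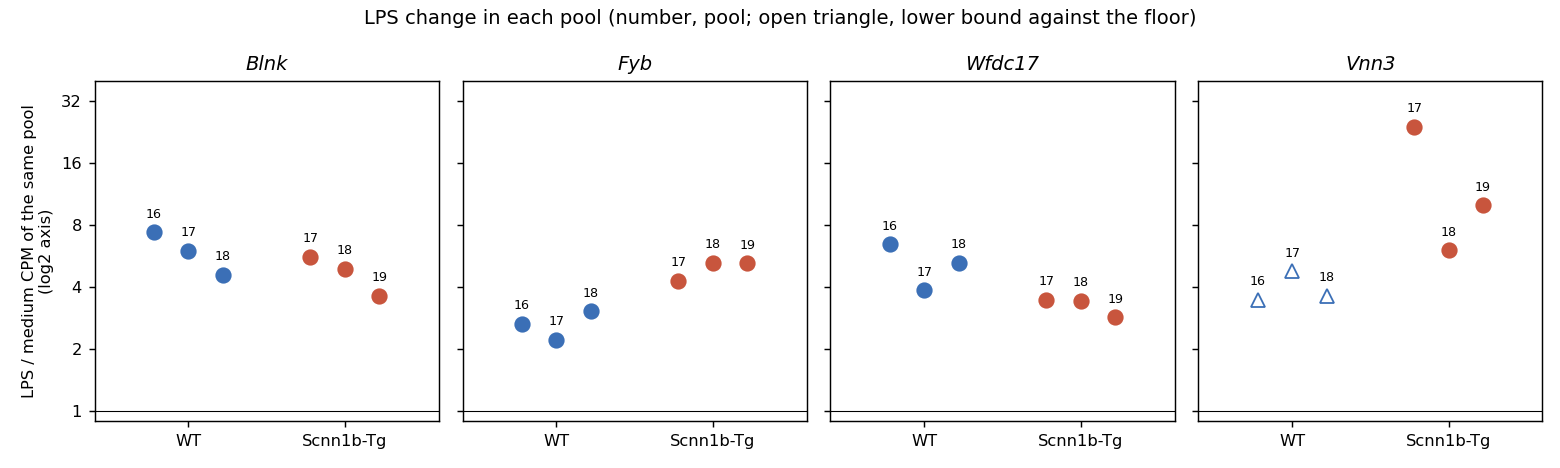
Ratio of LPS to medium CPM within each pool (vertical axis, log2 scale) for the 4 genes, WT in blue and Scnn1b-Tg in red, with the pool number above each point and open triangles for lower bounds against the floor. All points lie above 1, those of Fyb are higher in Scnn1b-Tg (4.31 to 5.27) than in WT (2.23 to 3.06), and those of Wfdc17 are lower in Scnn1b-Tg (2.86 to 3.48).

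The partners of Blnk in immunoreceptor signalling were then read from a list of 36 kinases, adaptors and effectors, of which 34 were tested. In WT, 10 rose and 8 fell with LPS, and in Scnn1b-Tg 10 rose and 9 fell, where 15.5% and 16.2% of all tested genes rose and fell in WT and 19.3% and 18.7% in Scnn1b-Tg. The median log2 change was -0.07 in WT and -0.03 in Scnn1b-Tg, against 0.00 and -0.02 for all tested genes. The largest rises were those of Lat, a membrane adaptor of T cells and mast cells, Malt1, the paracaspase of the Card9 and Bcl10 complex, and Fcer1g, an immunoreceptor signalling chain. Lat rose in WT cells from 1.73 ± 0.246 to 12.7 ± 2.03 CPM and in Scnn1b-Tg cells from 0.941 ± 0.456 to 8.33 ± 2.02 CPM (SD, n = 3). Malt1 rose by 2.55 ± 0.09 and 2.86 ± 0.09 on the log2 scale in WT and Scnn1b-Tg, and Fcer1g by 1.22 ± 0.15 and 1.24 ± 0.15. Lcp2, an adaptor related to Blnk, rose in group means from 165 to 273 CPM (WT) and from 153 to 285 CPM (Scnn1b-Tg).

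The largest falls were those of Tec, a kinase of the Btk family, Tyrobp, the DAP12 signalling chain, and Clec7a, the receptor dectin-1. Tec fell by 1.14 ± 0.12 on the log2 scale in WT and by 1.65 ± 0.12 in Scnn1b-Tg. Tyrobp fell in WT cells from 1060 ± 171 to 447 ± 143 CPM and in Scnn1b-Tg cells from 1250 ± 108 to 441 ± 118 CPM. Clec7a fell by 0.95 ± 0.16 and 1.21 ± 0.16 on the log2 scale.

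Between genotypes 0 of these 34 genes were called in medium (edgeR, 4 at an unadjusted p under 0.05, 1 by DESeq2) and 0 in LPS (2 at an unadjusted p under 0.05, 0 by DESeq2). Among all tested genes 0.168% were called higher and 0.168% lower in Scnn1b-Tg in medium, 46 in all. Of the 13729 genes tested, 1839 had an unadjusted p under 0.05 in medium, and DESeq2 called 501. In LPS 0.051% were called higher, which is 7 genes, or 11 with the pool as a random effect, and 0% were called lower. At an unadjusted p under 0.05 there were 622 higher and 356 lower in LPS, 978 in all. DESeq2 called 105 higher and 41 lower, 146 in all. Lat, which had the lowest genotype value in medium of the genes in this kinase-adaptor list averaging at least 1 CPM, had a fitted log2 of -0.92 with an edgeR adjusted p of 0.304.

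For Fyb, 27 of 30 listed genes of integrin activation and actin assembly were tested. In WT 5 rose and 4 fell with LPS, and in Scnn1b-Tg 7 rose and 6 fell, with medians of 0.07 and -0.05. These counts stand beside the 15.5% of all tested genes that rose and 16.2% that fell in WT (19.3% and 18.7% in Scnn1b-Tg), and all-gene medians of 0.00 and -0.02. Icam1, the ligand of the leukocyte integrins, rose in WT cells from 229 ± 35.4 to 725 ± 35.1 CPM and in Scnn1b-Tg cells from 147 ± 14.5 to 759 ± 59.6 CPM. Rapgef1, an exchange factor for Rap1, rose by 1.36 ± 0.11 and 1.44 ± 0.11 on the log2 scale, and Vcl, vinculin, by 1.19 ± 0.33 and 1.14 ± 0.33. Rassf5, a Rap1 effector, fell with fitted values of -1.89 ± 0.13 and -2.11 ± 0.13, Prkch, a protein kinase C, by 0.73 ± 0.10 and 0.95 ± 0.10, and Evl, a Vasp-family protein, by 0.55 ± 0.08 and 0.77 ± 0.08. Skap2, the myeloid partner of Fyb, was at 261 (WT) and 236 (Scnn1b-Tg) CPM in medium and at 306 and 326 CPM in LPS. Between genotypes 0 of the 27 were called in medium (edgeR, 7 at an unadjusted p under 0.05, 1 by DESeq2) and 0 in LPS (1 at an unadjusted p under 0.05, 0 by DESeq2). Of all 13729 tested genes, 1839 reached that unadjusted p in medium and 978 in LPS, and DESeq2 called 501 and 146.

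For Wfdc17, 14 of 37 genes in a list of whey acidic proteins, serpins, cystatins and related inhibitors were tested, and 6 rose and 4 fell with LPS in WT and 6 rose and 3 fell in Scnn1b-Tg, with medians of 0.46 and 0.28. Of all tested genes 15.5% rose and 16.2% fell in WT, 19.3% rose and 18.7% fell in Scnn1b-Tg, and the medians were 0.00 and -0.02. Slpi, the secretory leukocyte protease inhibitor, rose in WT cells from 224 ± 40.2 to 3330 ± 685 CPM and in Scnn1b-Tg cells from 226 ± 28.2 to 3450 ± 557 CPM. Serpinb9, which blocks granzyme B, rose by 1.78 ± 0.10 and 2.07 ± 0.10 on the log2 scale, and Serpinb8 by 1.73 ± 0.22 and 2.71 ± 0.24. Wfdc10, another whey acidic protein gene, fell in WT cells from 3.02 ± 0.558 to 0.54 ± 0.159 CPM and in Scnn1b-Tg cells from 4.83 ± 2.22 to 0.398 ± 0.12 CPM. Cst3, cystatin C, fell by 0.45 ± 0.15 and 0.48 ± 0.15 on the log2 scale.

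Serpinb9 was the 1 gene of the 4 lists called between genotypes by edgeR, with a sign opposite to that of Wfdc17. Of the 14 antiprotease genes 4 had an unadjusted p under 0.05 in medium and 4 were called by DESeq2, which over the 4 lists called 10 genes in medium and 2 in LPS. Of all 13729 tested genes, 1839 reached that unadjusted p in medium and 978 in LPS, and DESeq2 called 501 and 146. In medium Serpinb9 was at 57.7 ± 5.23 CPM (WT) and 36.8 ± 3.1 CPM (Scnn1b-Tg; SD, n = 3), a fitted log2 of -0.60 ± 0.10 with an edgeR adjusted p of 0.042. The call was lost when any of 8 of the 12 libraries was left out (WT medium 16, 17 or 18, WT LPS 18, Tg medium 17 or 19, Tg LPS 17 or 18), with adjusted p from 0.0287 to 0.267 over the 12 fits. It was also lost without the count filter (0.0747) and with the 6 medium libraries alone (0.111). In LPS the values were 198 ± 15.9 and 155 ± 14.8 CPM with an adjusted p of 0.382, and 0 of the 14 genes were called in LPS (edgeR, 3 at an unadjusted p under 0.05, 1 by DESeq2). Slpi, by contrast with Wfdc17, had fitted genotype values of -0.10 in medium and -0.06 in LPS on the log2 scale.

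For Vnn3, 22 of 27 listed genes of coenzyme A, cysteamine, taurine and glutathione metabolism were tested. In WT 6 rose and 8 fell with LPS, and in Scnn1b-Tg 6 rose and 6 fell, with medians of -0.37 and -0.17, where all tested genes had medians of 0.00 and -0.02 and 15.5% rose and 16.2% fell in WT, and 19.3% and 18.7% in Scnn1b-Tg. Gss and Gclm, which make glutathione, rose by 1.19 ± 0.17 and 1.51 ± 0.17 and by 0.57 ± 0.12 and 1.06 ± 0.12 on the log2 scale in WT and Scnn1b-Tg, and Dcakd, a dephospho-coenzyme A kinase domain gene, by 0.72 ± 0.11 and 0.90 ± 0.11. Enpp1, an ectonucleotidase, fell by 1.95 ± 0.14 and 2.27 ± 0.14, Slc6a6, the taurine transporter, by 0.87 ± 0.09 and 1.18 ± 0.09, and Ppcdc, an enzyme of coenzyme A synthesis, by 0.74 ± 0.19 and 0.86 ± 0.19. Vnn1, the founding vanin and neighbour of Vnn3, did not pass the count filter and was at 0.0484 to 0.0677 CPM in the 4 group means.

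Between genotypes 0 of the 22 were called in medium (edgeR, 6 at an unadjusted p under 0.05, 4 by DESeq2) and 0 in LPS (3 at an unadjusted p under 0.05, 1 by DESeq2). Of all 13729 tested genes, 1839 reached that unadjusted p in medium and 978 in LPS, and DESeq2 called 501 and 146. The list gene with the highest genotype value of those averaging at least 1 CPM, named after its values were seen, was Cdo1, the cysteine dioxygenase that feeds hypotaurine synthesis. Cdo1 was at 0.668 ± 0.348 CPM in WT medium and 3.01 ± 0.756 in Scnn1b-Tg medium (fitted log2 2.05, adjusted p = 0.0844), and at 0.208 ± 0.23 and 1.46 ± 0.55 CPM in LPS (2.66, adjusted p = 0.174). Unlike Vnn3, it fell with LPS in Scnn1b-Tg, by 1.08 on the log2 scale (edgeR adjusted p = 0.0417), with a fitted value of -1.69 in WT (adjusted p = 0.0794). The WT LPS mean of Cdo1 lay near the floor of that group (0.139 to 0.16 CPM), so 2.66 and -1.69 rest on few reads.

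**Figure D4:**
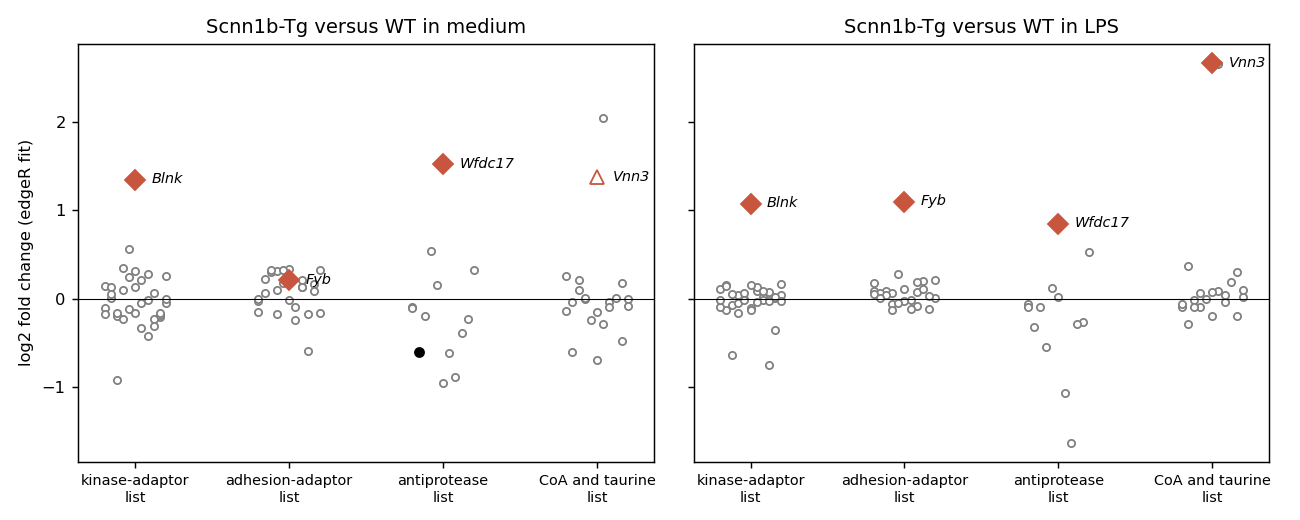
Fitted log2 fold change between Scnn1b-Tg and WT (vertical axis) in medium (left) and in LPS (right) of list genes averaging at least 1 CPM, 33 kinase-adaptor, 25 adhesion-adaptor, 12 antiprotease and 20 coenzyme A and taurine genes, with Serpinb9 as the filled point, and of the 4 genes as red diamonds or, for Vnn3 in medium, an open triangle at its lower bound. Blnk at 1.35 and 1.07 lies above its list, whose highest values were 0.56 and 0.17. In the last list Cdo1 stands at 2.05 and 2.66, the latter with its WT LPS mean near the floor. Blnk was chosen for being higher in Scnn1b-Tg, so its place above the list follows from that choice.

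The genes around the 4 loci were read for changes over the same libraries. Within 250 kb lay 36 other genes of the table, of which 19 were tested and 13 were called in at least 1 of the 4 comparisons, as were 42.4% of all tested genes, and 1 of the 13 was also called between genotypes (edgeR). No test of the neighbours as a group was made. Wfdc17 had the most, since it lies beside the CC chemokine cluster of chromosome 11. Ccl4, 39.3 kb away, rose in WT cells from 1.26 ± 0.376 to 39.2 ± 5.72 CPM and in Scnn1b-Tg cells from 1.68 ± 0.817 to 57.1 ± 19.4 CPM. Ccl3, 54.6 kb away, rose by 4.53 ± 0.21 and 5.32 ± 0.21 on the log2 scale. Ccl9, 125 kb away, rose by 0.65 ± 0.21 and 1.06 ± 0.21, while Ccl6, 111 kb away, fell by 1.26 ± 0.36 and 1.27 ± 0.36. Wfdc21, another whey acidic protein gene 40.7 kb away, rose in WT cells from 4.78 ± 0.439 to 10.2 ± 3.49 CPM and in Scnn1b-Tg cells from 7.35 ± 2.43 to 17.8 ± 9.95 CPM.

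Ccl5, 173 kb from Wfdc17, was the 1 neighbour called between genotypes. This chemokine for T cells and monocytes was at 38.4 ± 4.64 CPM in WT LPS and 176 ± 30.3 CPM in Scnn1b-Tg LPS (SD, n = 3), a log2 difference of 2.06 ± 0.13 with an edgeR adjusted p of 9.14e-05. In medium it was at 1.29 ± 0.28 and 2.32 ± 0.707 CPM (adjusted p = 0.114), whereas Wfdc17 had its larger fitted gap in medium. Heatr6, 47.4 kb away, rose in Scnn1b-Tg by 0.42 ± 0.11, with 0.23 ± 0.11 in WT (adjusted p = 0.122).

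**Figure D5:**
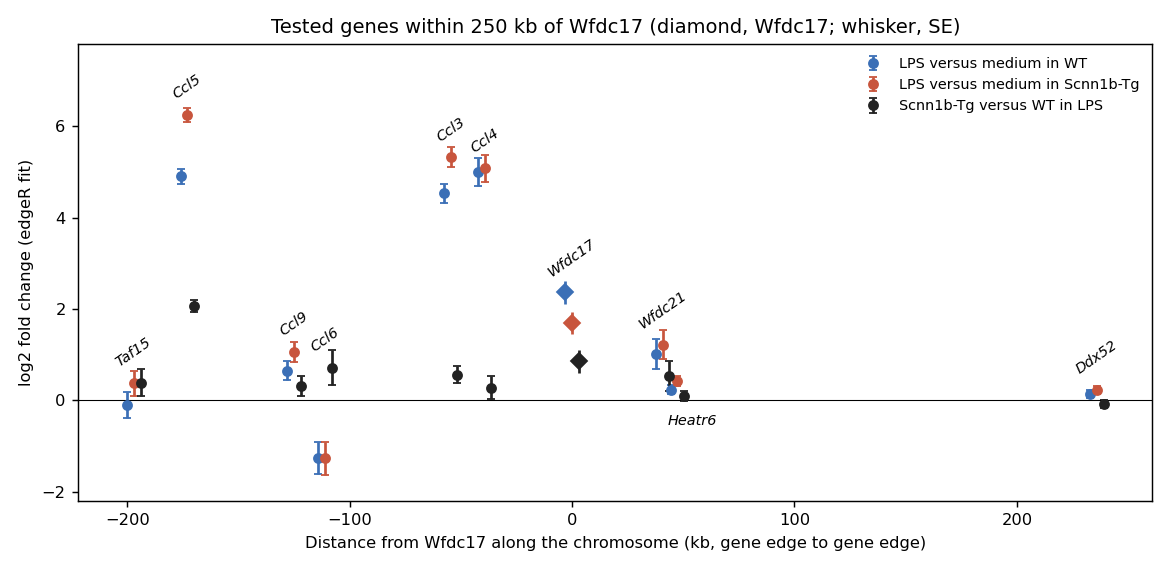
Fitted log2 fold change with SE (vertical axis) of the tested genes within 250 kb of Wfdc17 against their distance from it in kb (horizontal axis, negative towards the start of the chromosome), for LPS in WT (blue), LPS in Scnn1b-Tg (red) and Scnn1b-Tg against WT in LPS (black), with Wfdc17 as diamonds at 0. Ccl3, Ccl4 and Ccl5 have larger fitted LPS values than Wfdc17, those of Ccl6 lie below 0, and Ccl5 at 2.06 is the one neighbour called between genotypes.

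At the other loci the neighbours moved less or fell. Next to Blnk, Entpd1, an ectonucleotidase 187 kb away, fell in WT cells from 36.1 ± 9.85 to 13.3 ± 2.02 CPM and in Scnn1b-Tg cells from 43.1 ± 3.72 to 16.3 ± 4.35 CPM. Ccnj, a cyclin 80.4 kb away, rose in WT by 0.59 ± 0.20 (adjusted p = 0.043), and Zfp518a, 11 kb away, fell in Scnn1b-Tg by 0.55 ± 0.14 (adjusted p = 0.00791). Next to Fyb, Rictor, a subunit of the second mTOR complex, rose by 0.47 ± 0.10 and 0.51 ± 0.10 on the log2 scale, and Dab2, an endocytic adaptor, fell in Scnn1b-Tg by 0.78 ± 0.17 (adjusted p = 0.00362). Slc18b1, a polyamine transporter 23.5 kb from Vnn3, fell in WT cells from 3.62 ± 0.753 to 1.33 ± 0.38 CPM and in Scnn1b-Tg cells from 5.49 ± 0.753 to 1.8 ± 0.231 CPM.

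Genes with the most similar profile were taken by Pearson's r of batch-adjusted log2 CPM over the 12 libraries, for 11156 genes averaging at least 1 CPM. Libraries fall into LPS and medium clusters and share pools, so these values describe likeness and were not tested. Blnk was closest to Agrn (r = 0.987), Uba7 (0.975), Sp140 (0.975), Erap1 (0.974) and Trim12c (0.973). Agrn, the proteoglycan agrin, was at 8.7 ± 3.51, 22.1 ± 3.52, 48 ± 14.2 and 78.1 ± 8.17 CPM in WT medium, Scnn1b-Tg medium, WT LPS and Scnn1b-Tg LPS, the group order of Blnk. Uba7 activates the ubiquitin-like modifier Isg15, and Erap1 trims peptides for class I antigen presentation.

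Fyb was closest to Adhfe1 (r = 0.983), Ccl5 (0.98), Gphn (0.98), Lacc1 (0.979) and Rab32 (0.972), a GTPase of lysosome-related organelles. Adhfe1, a mitochondrial dehydrogenase, was at 5.45 ± 0.785 and 6.01 ± 0.773 CPM in WT and Scnn1b-Tg medium and at 11.2 ± 2.55 and 18 ± 3.49 CPM in LPS. Wfdc17 was closest to Zfp658 (r = 0.954), Tm4sf19 (0.953), Ccr7 (0.947), Vnn3 (0.947) and the kinase gene Lrrk2 (0.938). Vnn3 was closest to Fscn1 (r = 0.972), Sash1 (0.97), Hsf1 (0.969), Adamtsl5 (0.956) and Lrrk2 (0.952). A high r does not mean a change of like size. Fitted LPS changes in WT and Scnn1b-Tg were 0.14 and 0.16 for Hsf1 and 0.32 and 0.33 for Adamtsl5. Neither gene was called in any comparison (edgeR), and both overlapped between genotypes in medium and in LPS. The r values of Vnn3 also include WT medium, where it lay under the floor. Among the 4 genes themselves r ran from 0.885 for Fyb and Vnn3 to 0.947 for Wfdc17 and Vnn3. All 4 were picked for rising with LPS and standing higher in Scnn1b-Tg. High values of r among them therefore follow from that choice and are no separate result.

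Of the genes so named other than the 4 themselves, which are not tested here, Ccr7 was called in medium, Fscn1 in LPS and Ccl5 in LPS between genotypes. Ccr7, the receptor that guides cells to lymph nodes, was at 2.02 ± 0.268 and 5.01 ± 0.819 CPM in WT and Scnn1b-Tg medium (edgeR adjusted p = 0.042) and at 6.88 ± 0.319 and 14.4 ± 3.39 CPM in LPS (adjusted p = 0.0798). Fscn1, the actin bundler fascin, was at 0.333 ± 0.155 and 0.795 ± 0.203 CPM in medium (adjusted p = 0.0892) and at 1.14 ± 0.0841 and 2.99 ± 1.11 CPM in LPS (adjusted p = 0.0458). Because they were picked for likeness to genes that differ between genotypes, these calls are no separate support.

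Markers of cells in which the 4 genes are well known were read in the same libraries. Of the B-cell list 9 of 10 genes were in the table, and their summed level was 94.2 to 124 CPM in WT medium, 104 to 127 in Scnn1b-Tg medium, 84.3 to 129 in WT LPS and 83.4 to 119 in Scnn1b-Tg LPS. Nearly all of it was Cd22 (81.1 to 127 CPM), the other 8 summed to at most 3.95 CPM, and Ms4a1 was at or below the floor in all 12 libraries. Of the T-cell list all 10 genes were measured, and the sum was 192 to 240, 183 to 218, 174 to 253 and 155 to 194 CPM in the same order of groups, nearly all of it Cd2 (12.4 to 208 CPM) and Il7r, with Themis at the floor. Platelet markers (7 of 8) summed to 0.815 to 1.38, 0.654 to 1.34, 2.31 to 5.23 and 3.26 to 6.2 CPM, mostly Pf4, with Itga2b and Gp6 at the floor. None of these sums separated the genotypes, but a few single markers did. In LPS Cd2 was lower in Scnn1b-Tg (12.4 to 22.3 CPM) than in WT (23.8 to 36.0 CPM). Igkc was higher there in Scnn1b-Tg (1.03 to 1.2 CPM) than in WT (0.121 to 0.739 CPM). In medium Cd3g and Gp1ba were lower without overlap, both under the floor in Scnn1b-Tg.

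Alveolar macrophage markers (11 of 12) summed to 11900 to 12700 CPM in WT medium, 14000 to 17400 in Scnn1b-Tg medium, 8570 to 10700 in WT LPS and 10300 to 15400 in Scnn1b-Tg LPS, the cell type of the labels, with Chil3 the largest (6660 to 14400 CPM). This sum was higher in Scnn1b-Tg in medium without overlap. Most of it was Chil3, at 9550 to 10300 CPM in WT medium and 11500 to 14400 CPM in Scnn1b-Tg medium. Without Chil3 the highest library was at 2410 CPM in WT medium and 3030 CPM in Scnn1b-Tg medium. Pparg, Car4 and Fabp4 were also higher there without overlap. Siglecf, Itgax, Marco, Ear2, Mrc1, Mertk and Krt79 overlapped in medium. In LPS Siglecf, Krt79 and Pparg were lower and Car4 was higher in Scnn1b-Tg without overlap. Airway epithelial markers (9 of 9) summed to 80.4 to 105 CPM in WT medium and 40.7 to 70.8 CPM in Scnn1b-Tg medium. In LPS the sum was 77.1 to 113 CPM in WT and 32.8 to 63.6 CPM in Scnn1b-Tg. No marker was at the floor in all 12 libraries. The sums did not overlap, but Scgb1a1 led them, at 34.2 to 71.7 CPM in WT medium and 13.9 to 29 CPM in Scnn1b-Tg medium. With LPS Scgb1a1 was at 52.4 to 68.9 CPM in WT and 13.8 to 35.4 CPM in Scnn1b-Tg. Without Scgb1a1 the highest library was at 46.2 (WT) and 41.9 CPM (Scnn1b-Tg) in medium, and at 44.2 and 28.2 CPM in LPS. Each other marker of this list, such as Sftpc, Cdh1 and Epcam, overlapped between genotypes in both treatments. Neutrophil markers (7 of 11) summed to 13.2 to 19.5, 18.2 to 22.3, 12.2 to 12.4 and 12.9 to 16.8 CPM, with S100a9 and Ngp at the floor. In LPS the genotypes did not overlap, but S100a8 led the sum and overlapped when taken alone. Without S100a8 the highest WT library was at 6.18 CPM and the highest Scnn1b-Tg library at 5.3 CPM. In medium Cxcr2 was higher in Scnn1b-Tg (5.55 to 9.64 CPM) than in WT (3.63 to 4.35 CPM), while S100a8, Csf3r and Ltf overlapped. Sums of monocyte (8 of 8, at most 159 CPM, mostly Fn1), dendritic cell (6 of 8, at most 4.38 CPM) and eosinophil markers (3 of 6, at most 128 CPM, nearly all Siglecf, which AMs carry) overlapped between genotypes in medium. The eosinophil sum was lower in Scnn1b-Tg LPS (5.17 to 8.18 CPM) than in WT LPS (8.91 to 13.7 CPM). None of the marker genes was called between genotypes (edgeR). The part of these cell types in the values of the 4 genes was not tested.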

How the data were processed

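RNA from 12 cultures of airway macrophages was sequenced as read pairs from full-length amplified cDNA. Per the study's methods, the authors aligned reads to mm10 with HISAT2 without strand, quantified GENCODE M20 transcripts with StringTie and converted coverage to gene counts, and the deposited values are these estimated counts, whole as deposited. Low values clustered on multiples of 5 and of 2.5 rounded up (55.3% of 47985 values from 1 to 30, where an even spread gives 40.0%), which was taken as 2.5 counts per read. Floors cover counting error only, since reads carry no molecular identifiers. Symbols and positions came from GENCODE M21.

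Counts were analysed with edgeR 4.0.16 (R 4.3.3): filterByExpr (minimum count 10, minimum total 15), TMM factors, a quasi-likelihood fit with group and batch over all 12 libraries, two-sided tests and Benjamini-Hochberg adjustment over 13729 genes. SE is the absolute log2 change divided by the square root of F. An exact permutation test of 3 against 3 pools cannot go below 0.10, so none was run. Batches hold 1 or 2 pools of a genotype and gave ratios only. The genes and lists were chosen with earlier results of these data known. Named genes were the 4 genes, every list gene called between genotypes, the 3 largest LPS rises and falls per list called in both genotypes (mean of at least 1 CPM), called neighbours within 250 kb and the 5 most similar genes each. Exceptions (Lcp2, Skap2, Vnn1, Cdo1, Gm7666, Gm2245 and markers) were named for their relation or after their values were seen. A few genes that these rules name are not reported here. Proteins were not compared, as no protein table was used here. Medium and LPS libraries of a pool come from the same animals. Their deviations from the group means correlated by 0.137 to 0.335 across genes, with at most 0.083 for other pools. Alternatives were DESeq2 1.42.0, other scaling, filter, count scale, batch and pool terms (limma 3.58.1), 6 libraries alone, leaving out libraries and, chosen after seeing the data, the earlier quasi-likelihood form of edgeR.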

Additional observations from a re-analysis of the deposited data

How the results depend on the processing

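Of 347 refits of the log2 changes of the 4 genes, 343 moved by less than the spread between replicates and none changed sign. The other 4 left out 1 library: without Tg LPS 17, Blnk changed by 2.02 with LPS in Scnn1b-Tg and by 0.795 between genotypes in LPS, and the Fyb difference in medium was 0.114 without WT medium 18 and 0.0917 without Tg medium 17. Leaving out each library in turn gave, for Blnk, 2.28 to 2.83 for LPS in WT, 2.02 to 2.39 for LPS in Scnn1b-Tg, 1.14 to 1.67 for genotype in medium, 0.795 to 1.2 for genotype in LPS and -0.591 to -0.0485 for the difference of the responses. For Fyb the ranges were 1.31 to 1.47, 2.22 to 2.39, 0.0917 to 0.267, 1.04 to 1.21 and 0.825 to 0.99, and for Wfdc17 2.08 to 2.56, 1.49 to 1.85, 1.25 to 1.81, 0.58 to 1.1 and -0.874 to -0.369. For Vnn3 they were 2.97 to 3.61 for LPS in Scnn1b-Tg and 2.49 to 2.9 for genotype in LPS, with lower bounds of 3.48 to 4.39 for LPS in WT and 2.2 to 3.33 for genotype in medium. Of 1442 refits of other named genes, 65 fell short of the threshold and none changed sign.

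Counts of genes called between genotypes depended on the processing. In medium 46 were called, against 501 with DESeq2, 18 without the count filter, 28 without the batch term, 20 with the 6 libraries alone, 77 with the replicate number as a block, and 3 (without Tg medium 17) to 49 without 1 library. In LPS 7 were called, against 146 with DESeq2, 4 without the batch term, 2 with the 6 libraries alone, 11 and 12 with the pool or the replicate number as a block, and 2 (without Tg LPS 17) to 10 without 1 library. List genes called in medium were 1, against 10 with DESeq2, 2 with DESeq2's size factors in edgeR, 0 without the filter, 3 with counts divided by 5, 3 with the replicate number as a block and 0 to 2 without 1 library. In LPS they were 0, against 2 with DESeq2 and 0 to 1 without 1 library. The cause was not tested. The replicate block changed no other call among 178 blocked values. At 0 to 5 counts, Vnn3 in WT medium lay under the floor, so its level there could not be measured at this depth.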
